A study of Mus musculus with 24 samples.

Results

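Expression of 10 genes for secreted regulators of Wnt signalling was described in cultured mouse cartilage samples exposed to hydrostatic pressure. They were the secreted Frizzled-related genes Frzb, Sfrp1, Sfrp2 and Sfrp5, the Dickkopf genes Dkk1 and Dkk3, Wif1, and the R-spondin genes Rspo2, Rspo3 and Rspo4. In the mouse genome (GRCm38) Frzb and Rspo4 lie on chromosome 2, Sfrp5 and Dkk1 on 19, Wif1 and Rspo3 on 10, and Sfrp2, Dkk3, Sfrp1 and Rspo2 on 3, 7, 8 and 15. Each was found by its symbol, which gave 10 of the 52178 genes in the count table. The list was selected on measured values: it was drawn up with earlier results of these data known, in which Frzb and Rspo4 were among the genes with the highest ratio of control hip caps to control metatarsals. Differences of the 10 genes between the tissues are therefore a description and carry no test. All 10 genes were among the 21283 that passed the filter on low counts, Rspo4 through its hip cap counts and Rspo2 through its metatarsal counts.

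The samples were hip caps, the cartilage caps of the femoral head, of male C57/BL6 mice aged 4 weeks, and metatarsals from C57/BL6 embryos at embryonic day 15. The labels name no transgene. The hip caps of 1 mouse, or 6 metatarsals, were pooled into each sample, cultured for 24 h, held at 0 MPa (control), 5 MPa or 50 MPa for 1 h, and collected after another 24 h. RNA depleted of ribosomal RNA was sequenced in 4 libraries for each tissue and pressure, and the study left out 1 control hip cap library (replicate 4) and 1 hip cap library at 50 MPa (replicate 2). The same 22 libraries entered the fit here, so control hip caps and hip caps at 50 MPa had n = 3 and each other group had n = 4. Hip caps were kept in Dulbecco's Modified Eagle Medium, and metatarsals in alpha-Minimum Essential Medium with albumin, beta-glycerophosphate and ascorbic acid phosphate. The sex of the embryos is not stated, and the paper lists the X-inactivation gene Xist among those most strongly lower in hip caps than in metatarsals. Tissue, age, stage and culture medium differed together, and sex may have differed with them. Their parts in a difference between hip caps and metatarsals cannot be told apart.

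Wnt proteins are secreted signals that bind Frizzled receptors and LRP5 or LRP6 on the cell surface, and in the canonical branch their binding keeps beta-catenin from being degraded. Secreted Frizzled-related proteins and Wif1 bind Wnt ligands outside the cell, whereas Dkk1 binds LRP5 and LRP6. R-spondins act the other way: they bind LGR4, LGR5 or LGR6 together with the membrane ligases ZNRF3 or RNF43 and so leave more Frizzled at the surface. In cartilage, Frzb was first purified from articular cartilage extracts, and Wnt antagonists are studied there because Wnt activity affects chondrocyte maturation.

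Levels are in CPM, the counts scaled to a common library size with factors from trimmed means of M values (TMM), and folds are log2 ratios from edgeR with their standard error (SE). Estimated counts summed to between 4185557 and 25104484 per library. All 14 cartilage markers, Col2a1 and Acan among them, were detected in every library, and each was higher in hip caps than in metatarsals at each pressure. Their summed level was between 23938 and 85562 CPM in the hip cap libraries of the fit and between 2244 and 5797 CPM in metatarsals. A list of 12 perichondrium, tendon and fibroblast genes, called mesenchyme markers below, summed to between 1309 and 3025 CPM in 9 of the 10 hip cap libraries and to 9465 CPM in the library of replicate 3 at 5 MPa. The metatarsals held between 6094 and 9545 CPM of these mesenchyme markers, and between 453 and 2567 CPM of 10 muscle markers that summed to at most 43.6 CPM in the hip caps of the fit. The libraries that the study left out had cartilage sums of 10219 CPM in the control and 16141 CPM at 50 MPa, both below every hip cap library of the fit, and the control also had 6825 CPM of mesenchyme markers. Their muscle sums were 67.7 CPM in the control and 153 CPM at 50 MPa, both above every hip cap library of the fit.

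Frzb, Sfrp5, Wif1 and Rspo4 had hip cap levels far above those of metatarsals, and Dkk1 was higher by a smaller margin. Frzb, a decoy for Wnt ligands, was at 657, 812 and 627 CPM in control hip caps, at 584, 673, 386 and 752 CPM at 5 MPa, and at 433, 392 and 1011 CPM at 50 MPa. In metatarsals the 12 libraries held between 2.30 and 6.78 CPM of Frzb. The tissues did not overlap at any pressure, and replicate 4 at 50 MPa was the highest hip cap library. In the left-out libraries Frzb was at 115 CPM in the control and 84.1 CPM at 50 MPa, which was below the other hip cap libraries and still above every metatarsal library.

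Wif1, a Wnt-binding factor, was at 197, 140 and 223 CPM in control hip caps, at 191, 199, 168 and 179 CPM at 5 MPa, and at 166, 124 and 117 CPM at 50 MPa. Sfrp5, another Frizzled-related decoy, was at 196, 134 and 194 CPM in controls, at 67.0, 91.8, 48.4 and 133 CPM at 5 MPa, and at 64.9, 65.9 and 93.8 CPM at 50 MPa. In TMM-scaled CPM each control library of Sfrp5 in the fit lay above all 7 pressurised hip cap libraries of the fit. The nearest were a control at 134 CPM and a 5 MPa library at 133 CPM. This order rests on the TMM factors, 0.541 to 0.700 in these controls and 0.817 to 1.12 at 5 MPa. Before scaling, that control (replicate 2) had 840 of 11631603 counts. That 5 MPa library (replicate 4) had 2716 of 25104484, a larger share. The left-out control library was below all hip cap libraries of the fit, with 18.2 CPM of Sfrp5 and 95.8 CPM of Wif1, and the left-out 50 MPa library held 20.0 and 57.9 CPM. The metatarsal libraries held between 1.32 and 3.89 CPM of Wif1 and between 1.14 and 3.74 CPM of Sfrp5.

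Rspo4, an R-spondin, was at 7.34, 5.73 and 9.72 CPM in control hip caps, at 4.23, 6.40, 2.99 and 5.42 CPM at 5 MPa, and at 2.64, 4.30 and 1.55 CPM at 50 MPa. These levels rested on between 5 and 111 counts per hip cap library, and in TMM-scaled CPM all controls lay above all 50 MPa libraries. In metatarsals Rspo4 had between 0 and 3 counts per library, so the tissue ratio was taken from pooled counts with a 95% Clopper-Pearson interval that covers counting error only. It was 219 (59.7 to 1825) in controls from 165 against 2 counts, 54.2 (26.0 to 136) at 5 MPa and 76.1 (25.2 to 376) at 50 MPa. The left-out control library had 0 counts of Rspo4, which allows up to 3 counts, and the left-out 50 MPa library had 33. An antisense gene on the opposite strand, Rspo4os, had between 0 and 4 counts in hip caps and between 0 and 12 in metatarsals, and in unstranded libraries reads of the pair cannot be told apart.

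Dkk1, the LRP-binding antagonist, was at 4.08, 4.93 and 5.05 CPM in control hip caps, and at 0.574, 2.14, 2.23 and 2.78 CPM in control metatarsals, the lowest of which rested on 3 counts. At 5 MPa it was between 4.83 and 6.29 CPM in hip caps and between 1.95 and 2.68 CPM in metatarsals. At 50 MPa the lowest hip cap library was at 2.64 CPM and the highest metatarsal library at 2.58 CPM, so that the tissues nearly met there.

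**Figure D1:**
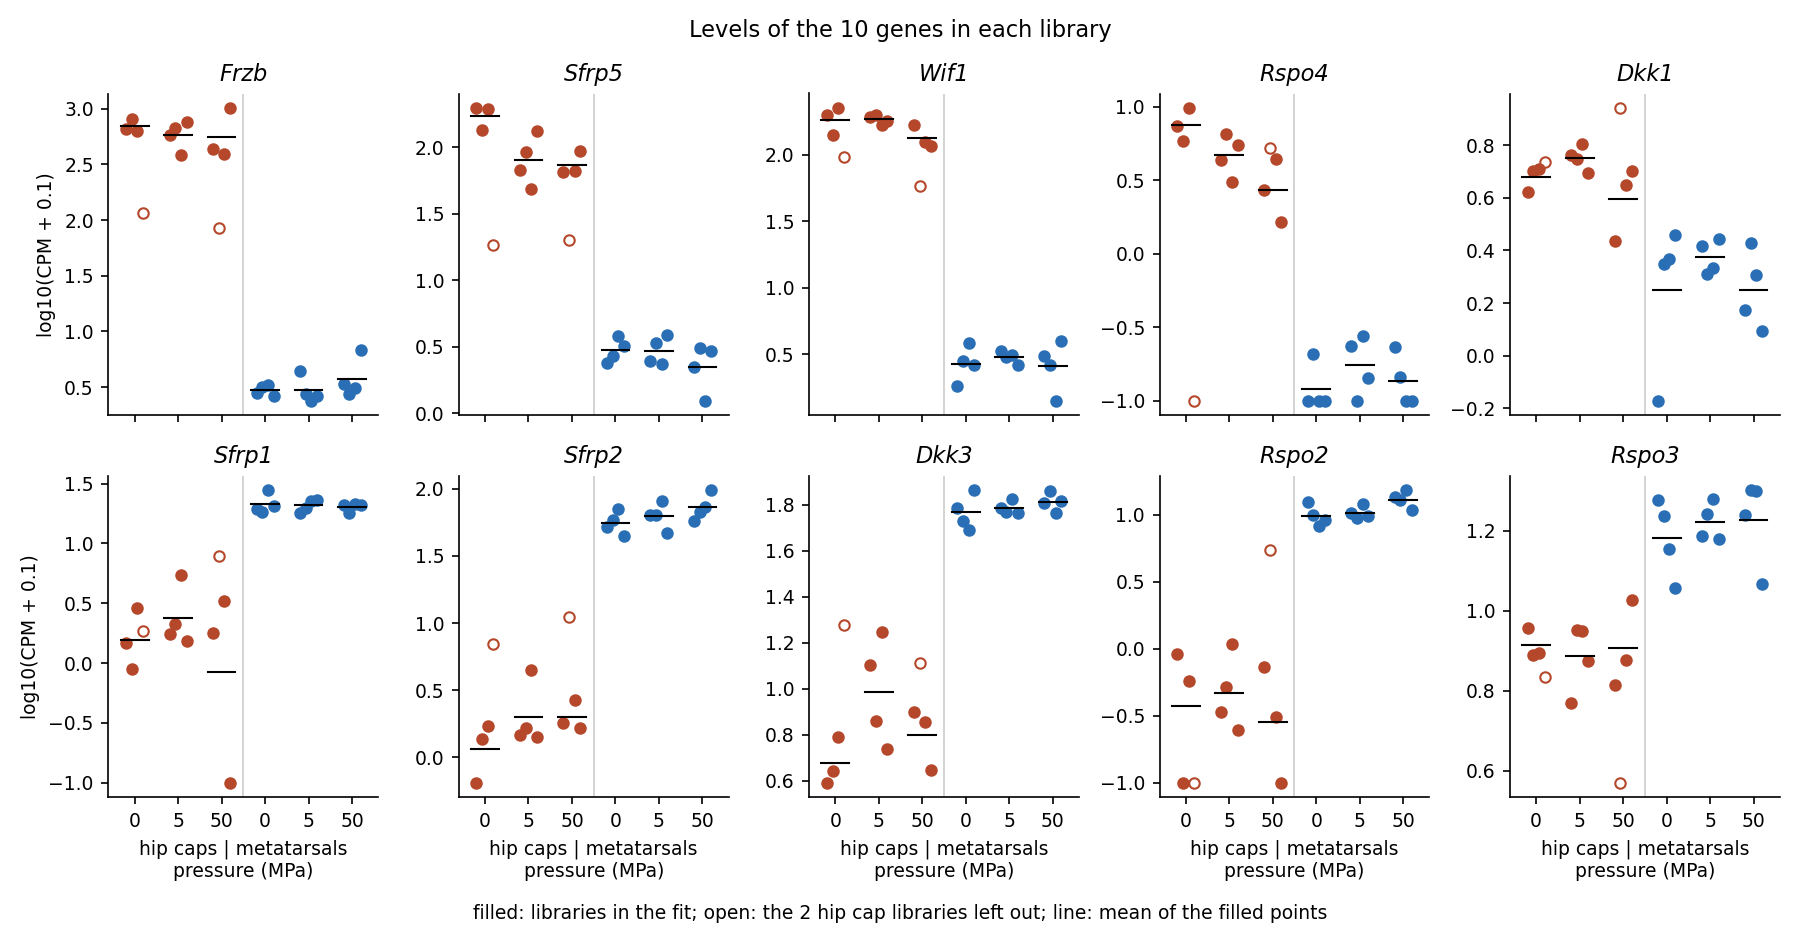
Level of each gene in every library as log10(CPM + 0.1), with hip caps (red) and metatarsals (blue) at 0, 5 and 50 MPa; filled points entered the fit, open points are the 2 hip cap libraries left out, and the line is the mean of the filled points. The top row holds the 5 genes with higher levels in hip caps and the bottom row the 5 with higher levels in metatarsals, and the vertical scales differ between genes.

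The sequences before the start sites of the 5 genes with higher hip cap levels are shown because their levels fell on the same side of the tissue comparison. Each is the 250 bases before the gene's annotated start in RefSeq (GRCm38.p6), written 5′ to 3′ on the gene's strand, and RefSeq promoters were matched for 6 of the 10 genes. Capitals mark CTTTGA, the core letters bound by TCF and LEF, the DNA-binding partners of beta-catenin, on either strand.
Frzb, chr2:80447397-80447646, minus strand: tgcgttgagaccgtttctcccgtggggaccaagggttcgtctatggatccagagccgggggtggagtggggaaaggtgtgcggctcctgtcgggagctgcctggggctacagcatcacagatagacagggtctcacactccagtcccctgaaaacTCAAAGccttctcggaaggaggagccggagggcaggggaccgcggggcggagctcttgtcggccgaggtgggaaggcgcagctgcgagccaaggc
Sfrp5, chr19:42202253-42202502, minus strand: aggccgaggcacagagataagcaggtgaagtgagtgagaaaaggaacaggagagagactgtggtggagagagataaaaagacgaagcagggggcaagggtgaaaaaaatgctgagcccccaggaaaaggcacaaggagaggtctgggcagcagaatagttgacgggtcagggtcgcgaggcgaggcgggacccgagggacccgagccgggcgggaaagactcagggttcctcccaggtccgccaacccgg
Wif1, chr10:121033754-121034003, plus strand: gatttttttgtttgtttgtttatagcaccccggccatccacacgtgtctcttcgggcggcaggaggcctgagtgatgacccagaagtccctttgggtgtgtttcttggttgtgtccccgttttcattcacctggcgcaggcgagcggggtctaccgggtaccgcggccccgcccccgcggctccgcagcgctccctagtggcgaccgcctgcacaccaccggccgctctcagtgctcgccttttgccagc
Rspo4, chr2:151842677-151842926, plus strand: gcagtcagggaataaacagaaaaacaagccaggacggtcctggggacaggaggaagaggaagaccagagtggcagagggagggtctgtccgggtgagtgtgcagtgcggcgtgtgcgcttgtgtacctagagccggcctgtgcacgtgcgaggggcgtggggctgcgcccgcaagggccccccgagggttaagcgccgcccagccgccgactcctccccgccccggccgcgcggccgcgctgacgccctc
Dkk1, chr19:30549497-30549746, minus strand: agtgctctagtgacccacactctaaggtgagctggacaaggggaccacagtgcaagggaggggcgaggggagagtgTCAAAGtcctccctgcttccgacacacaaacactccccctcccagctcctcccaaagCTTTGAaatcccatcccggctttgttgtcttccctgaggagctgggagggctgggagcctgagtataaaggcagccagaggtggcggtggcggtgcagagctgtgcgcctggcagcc
The TCF/LEF letters occurred 1 time before Frzb and 2 times before Dkk1, and they were not in this window before Sfrp5, Wif1 or Rspo4, nor before Sfrp2, the other matched gene. They occurred in 13.8% of the 32851 promoters in the table over the same length. The letters AACAAT, a core bound by SOX factors, were in none of the 6 windows and in 9.42% of all promoters. The GC box GGGCGG occurred before Frzb, Sfrp5, Wif1 and Rspo4 and in 32.7% of all promoters, and TATAAA before Dkk1 and Wif1 and in 12.4%, with both strands searched for every motif. The 6 windows had between 59.6% and 69.6% G and C, against a median of 52.4% over all promoters. These matches describe letters and do not show binding.

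Sfrp2, Dkk3, Sfrp1 and Rspo2 had the opposite distribution, and Rspo3 was lower in hip caps by a smaller margin. Sfrp2, a Frizzled-related protein made by mesenchymal cells, was at 52.1, 59.0, 70.3 and 44.4 CPM in control metatarsals, at 63.9, 64.0, 80.7 and 46.7 CPM at 5 MPa, and at 57.5, 67.7, 73.3 and 97.4 CPM at 50 MPa. In the hip caps of the fit it ranged between 0.544 and 4.38 CPM, and the highest of these was replicate 3 at 5 MPa. Of the 31-base words in its transcripts 13.7% occurred in other genes, and the antisense gene Gm26771 had at most 23 counts in a metatarsal library, against at least 272 for Sfrp2. The share of Sfrp2 counts that other genes could hold was not tested.

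Dkk3, a divergent Dickkopf protein, was at 61.1, 53.7, 48.9 and 72.9 CPM in control metatarsals and between 58.0 and 72.2 CPM in pressurised ones. In hip caps it was at 3.80, 4.30 and 6.10 CPM in controls, at 12.6, 7.17, 17.5 and 5.37 CPM at 5 MPa, and at 7.81, 7.07 and 4.33 CPM at 50 MPa. No hip cap library reached the metatarsal range, and the left-out control library, at 18.8 CPM, was the highest of all hip caps.

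Sfrp1 lay between 17.7 and 27.6 CPM in metatarsals and between 0 and 5.31 CPM in the hip caps of the fit. Rspo2, an R-spondin known from limb development, lay between 8.18 and 15.1 CPM in metatarsals and between 0 and 0.979 CPM in hip caps, where it had at most 19 counts. For both genes the highest of these hip cap libraries was again replicate 3 at 5 MPa. Among the hip caps of the fit that library had the highest mesenchyme marker sum, and also the highest sums of 6 macrophage and 5 endothelial markers. In the left-out 50 MPa library, whose mesenchyme sum was 1158 CPM, Sfrp1 was at 7.71 CPM, Sfrp2 at 11.01 CPM and Rspo2 at 5.35 CPM, each above every hip cap library of the fit. The muscle marker sum of that library, 153 CPM, was the highest of all hip caps.

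Rspo3 was detected in both tissues, at a lower level in every hip cap library of the fit than in every metatarsal library. It was at 8.97, 7.64 and 7.72 CPM in control hip caps and at 18.8, 17.2, 14.2 and 11.3 CPM in control metatarsals, and over all pressures it ranged from 5.77 to 10.5 CPM in hip caps and from 11.3 to 19.9 CPM in metatarsals. Of its 31-base words 12.2% occurred in other genes, and the antisense gene Gm48159 had at most 4 counts in a library.

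Compared per length, as CPM per kilobase of the median protein-coding transcript, the order of the levels differed between the tissues. In control hip caps Frzb led at 222 CPM per kilobase and was followed by Sfrp5 at 91.8 and Wif1 at 83.5, whose ranges overlapped. Rspo3 at 4.09 and Rspo4 at 3.20 came next and overlapped, then Dkk1 at 1.93 and Dkk3 at 1.41, which also overlapped. Sfrp2 at 0.572, Sfrp1 at 0.375 and Rspo2 at 0.134 CPM per kilobase were lowest, and the range of each overlapped that of the next. In control metatarsals Sfrp2 led at 28.2 CPM per kilobase, with Dkk3 at 17.6 below it without overlap. Rspo3 at 7.75 overlapped Sfrp1 at 4.89, and Rspo2 followed at 3.05 CPM per kilobase. Sfrp5 at 1.54, Wif1 at 1.20, Frzb at 0.911 and Dkk1 at 0.796 each overlapped the next, and Rspo4 was lowest at 0.0113. The gene at the top in hip caps was thus among the lowest in metatarsals. Among Rspo2, Rspo3 and Rspo4, Rspo3 had the highest mean in controls of either tissue, although its range overlapped that of Rspo4 in hip caps.

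Leaving aside Rspo4, whose tissue ratio is given above from pooled counts, fitted differences between the tissues ran from 7.40 ± 0.56 (log2, SE) for Frzb to -5.71 ± 0.48 for Sfrp2 in control samples. Wif1 was higher in hip caps by 6.00 ± 0.36, Sfrp5 by 5.86 ± 0.53 and Dkk1 by 2.36 ± 0.44, all on the log2 scale. Sfrp1 and Dkk3 both stood at -3.64 (SE 0.59 and 0.38), Rspo2 at -4.58 ± 0.62 and Rspo3 at -0.80 ± 0.26. These values chose the genes and are given as a description. At 5 MPa the same differences were 7.66 for Frzb, 5.97 for Wif1, 4.86 for Sfrp5, 1.27 for Dkk1, -1.11 for Rspo3, -2.52 for Dkk3, -2.98 for Sfrp1, -4.49 for Rspo2 and -4.87 for Sfrp2. At 50 MPa they were 6.79, 5.35, 4.86, 1.98, -0.80, -3.41, -3.51, -5.10 and -5.55 in that order. Each gene kept its side at all pressures and under all alternatives run. All control hip caps of the fit were assigned to sequencing run 1, and the control metatarsals other than replicate 1 to run 2. At 50 MPa all hip caps of the fit were in run 1 and unstranded. The metatarsals at 50 MPa other than replicate 4 were in run 2 and stranded. The fitted differences thus rest in part on the terms for run and library type. With no batch terms Dkk1 stood at 1.21 in controls.

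By the threshold of an adjusted p at most 0.05 over all genes tested, the hip caps had the higher level of 5 genes and the lower level of 5 at 0 MPa, against 14.1% of all genes higher and 15.9% lower. The counts were again 5 and 5 at 5 MPa, against 18.8% and 19.1%, and 5 and 4 at 50 MPa, against 10.1% and 9.58%, with Rspo3 the gene not called by edgeR and all 10 called by DESeq2. Since the list was chosen with this comparison known, these counts describe the list only. Rspo3 was the least certain at 0 MPa: its fold moved to -0.17 without metatarsal control replicate 1, to -0.77 without hip cap control replicate 1 and to -0.64 without hip cap control replicate 2, and it was not called in any of these fits. At 50 MPa Dkk1 (then at 2.80) and Rspo4 were not called without metatarsal replicate 4, the one unstranded metatarsal library.

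**Figure D2:**
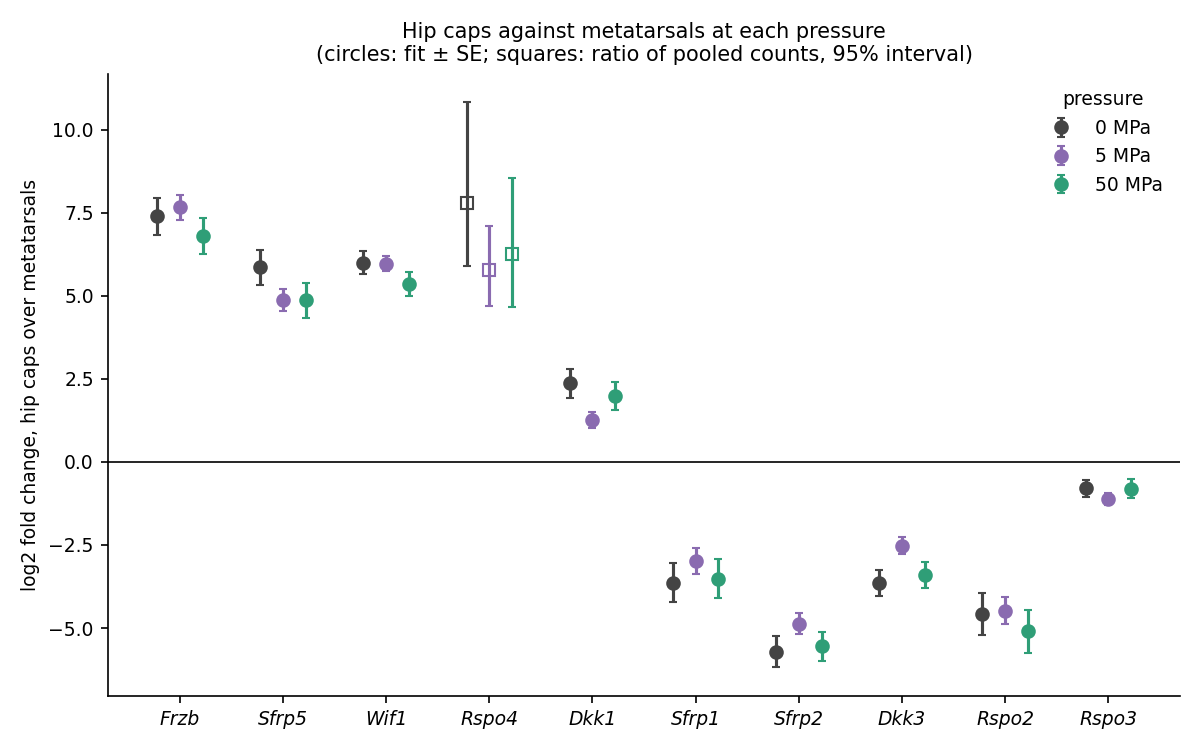
Log2 fold change of hip caps over metatarsals for each gene at 0, 5 and 50 MPa. Circles are fitted values with bars of 1 SE, and open squares for Rspo4 are ratios of pooled counts with 95% Clopper-Pearson intervals; Frzb, Sfrp5, Wif1, Rspo4 and Dkk1 lie above 0 at each pressure and the other 5 below.

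Pressure was then compared with control within each tissue, which asks whether the expression of these regulators responded to loading. In hip caps at 50 MPa 1 of the 10 genes was called, against 5.18% of all genes. Sfrp5 fell from 174 ± 35.3 CPM (SD, n = 3) to 74.8 ± 16.4 CPM (SD, n = 3), a log2 fold change of -1.47 ± 0.41 (SE) with an adjusted p of 0.0442 by edgeR. Wif1 went from 187 ± 42.5 to 136 ± 26.5 CPM, with -0.89 ± 0.28 and an adjusted p of 0.0652 by edgeR. Rspo4 went from 7.59 ± 2.01 to 2.83 ± 1.39 CPM, with -1.68 ± 0.61 and an adjusted p of 0.106 by edgeR. In TMM-scaled CPM the groups of Sfrp5 and Rspo4 did not overlap, whereas Wif1 at 166 CPM in a 50 MPa library lay above the lowest control at 140 CPM. DESeq2 called Sfrp5 (adjusted p = 0.0114) and Wif1 (adjusted p = 0.0241).

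The cartilage marker sum was lower in the same libraries, at 35611 to 41397 CPM at 50 MPa against 53572 to 85562 CPM in controls. All 14 markers were detected in each library, 2 of them were called lower at 50 MPa, and the median log2 fold change of the list was -1.24 against 0.02 over all genes. The mesenchyme markers summed to 1962 to 2680 CPM at 50 MPa against 1309 to 2304 CPM in controls, with a list median of 0.87 and 1 of 12 called higher. Osteoblast, macrophage and muscle sums did not overlap between these groups. The 6 osteoblast and osteocyte markers were at 935 to 1261 CPM against 1640 to 2912 CPM in controls. The 6 macrophage markers were at 76.7 to 93.1 against 24.2 to 40.9 CPM, and 10 muscle markers at 28.6 to 43.6 against 13.4 to 14.7 CPM. Most of the muscle sum was Ttn, with means of 30.8 CPM at 50 MPa and 7.8 CPM in controls. Up to 3 of the 10 muscle markers were at 0 in a library. By edgeR 1 osteoblast marker (Sp7) was called lower, 1 muscle marker (Ttn) higher and 0 macrophage markers. The fitted folds of Bglap, C1qa, C1qb, Tnnt1, Tnnc1 and Des ran against the direction of their list's sum. Fewer chondrocytes and less of the cartilage marker RNAs per chondrocyte cannot be told apart in bulk samples. The part of these marker sums in the fall of Sfrp5 was not tested. All 3 control hip caps of the fit and all hip caps at 50 MPa were assigned to sequencing run 1, while 2 of these controls were stranded and every 50 MPa library was unstranded. Within run 1, with no term for library type, Sfrp5 was at -1.22 with an adjusted p of 0.267.

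The call of Sfrp5 depended on single libraries. It was lost without control hip cap replicate 3 (log2 fold change -1.99, adjusted p = 0.406 by edgeR), without hip cap replicate 1 (-1.38, 0.0873) or 3 (-1.44, 0.0996) at 50 MPa, and without metatarsal control replicates 1 to 4, metatarsal replicate 3 at 5 MPa or metatarsal replicates 1 and 4 at 50 MPa, where the adjusted p was between 0.0519 and 0.0784. Wif1 was called without control hip cap replicate 2 (adjusted p = 0.0425 by edgeR), hip cap replicate 3 at 5 MPa (0.0422), hip cap replicate 1 at 50 MPa (0.0436) or metatarsal replicate 3 at 50 MPa (0.0441). In all 33 alternatives the fold of Sfrp5 was below 0, from -1.99 to -1.22, and in all 32 alternatives that of Wif1 was too, from -1.88 to -0.46.

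The other 7 genes were not called in hip caps at 50 MPa. Frzb stood at -0.35 ± 0.45 (log2, SE), Dkk1 at -0.53 ± 0.39, Sfrp1 at -0.14 ± 0.67, Rspo3 at 0.26 ± 0.29, Dkk3 at 0.30 ± 0.43 and Sfrp2 at 0.35 ± 0.58. Rspo2 had at most 6 counts in any hip cap library of that pair of groups, which leaves no usable fold. Frzb varied more at 50 MPa (SD 346 CPM around a mean of 612 CPM) than in controls (SD 99.0 CPM around 699 CPM). The highest 50 MPa library, replicate 4 at 1011 CPM, had a TMM factor of 0.427, the lowest of all libraries. The other 50 MPa libraries of the fit had factors of 0.683 and 1.06. The part of these factors in the spread of Frzb was not tested.

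At 5 MPa none of the 10 genes was called in hip caps by edgeR or DESeq2, against 0.0188% of all genes by edgeR, and 2 of them were under an unadjusted p of 0.05 by edgeR and 3 by DESeq2. Dkk3 had the highest fold, 1.15 ± 0.43 (log2, SE; adjusted p = 0.239 by edgeR), with group means of 4.73 ± 1.21 and 10.7 ± 5.51 CPM (SD, n = 3 and n = 4). Sfrp5 was at -1.05 ± 0.54 (adjusted p = 0.370 by edgeR), with 85.0 ± 36.4 CPM at 5 MPa. All hip caps at 5 MPa were assigned to run 2 and all controls of the fit to run 1, so run and pressure can be told apart only through the other groups of the fit. With no batch terms, Dkk3 at 1.12 (adjusted p = 0.0294 by edgeR) and Sfrp5 at -1.04 (adjusted p = 0.0274 by edgeR) were called. With all 24 libraries neither fold remained, Dkk3 being at 0.00 and Sfrp5 at 0.42 (adjusted p = 0.834 by edgeR). Dkk1 was at -1.08 ± 0.46 in the fit and at 0.24 with no batch terms, and Frzb at 0.39 ± 0.51 and -0.22, so both changed sign with these terms. The other genes were at 0.98 ± 0.56 for Sfrp2, 0.52 ± 0.68 for Sfrp1, 0.00 ± 0.31 for Wif1 and -0.16 ± 0.30 for Rspo3, while Rspo2 had at most 19 counts. Rspo4 had group means of 7.59 and 4.76 CPM, and its fitted -3.71 ± 2.39 was far larger than that change and stood at 2.65 with all 24 libraries. By the layout of the samples alone, the batch terms make the SE of this comparison 1.48 times as large at an equal spread.

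The mesenchyme marker sum of replicate 3 at 5 MPa stood beside these values. That sum was not the only one apart. Of the hip caps of the fit, replicate 3 at 5 MPa also had the highest sums of macrophage markers (194 CPM) and of 5 endothelial markers (236 CPM). Its cartilage sum of 23938 CPM was the lowest. Dkk3 in the hip caps of the fit was highest in that library and next highest, at 12.6 CPM, in replicate 1 at 5 MPa, whose mesenchyme sum of 3025 CPM was also next highest. The left-out libraries did not keep this order. Dkk3 was at 12.9 CPM in the left-out 50 MPa library, whose mesenchyme sum of 1158 CPM was the lowest of all hip caps. The muscle marker sum of that library, 153 CPM, was the highest of all hip caps. In the left-out control Dkk3 was at 18.8 CPM, with a mesenchyme sum of 6825 CPM. Of the 12 mesenchyme markers none was at 0 in the hip caps at 5 MPa, and the list's median log2 fold change at 5 MPa was 0.89 with none called by edgeR. The part of any of these marker sums in the Dkk3 levels was not tested, and without replicate 3 the fold of Dkk3 was 0.86 (adjusted p = 0.275 by edgeR).

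**Figure D3:**
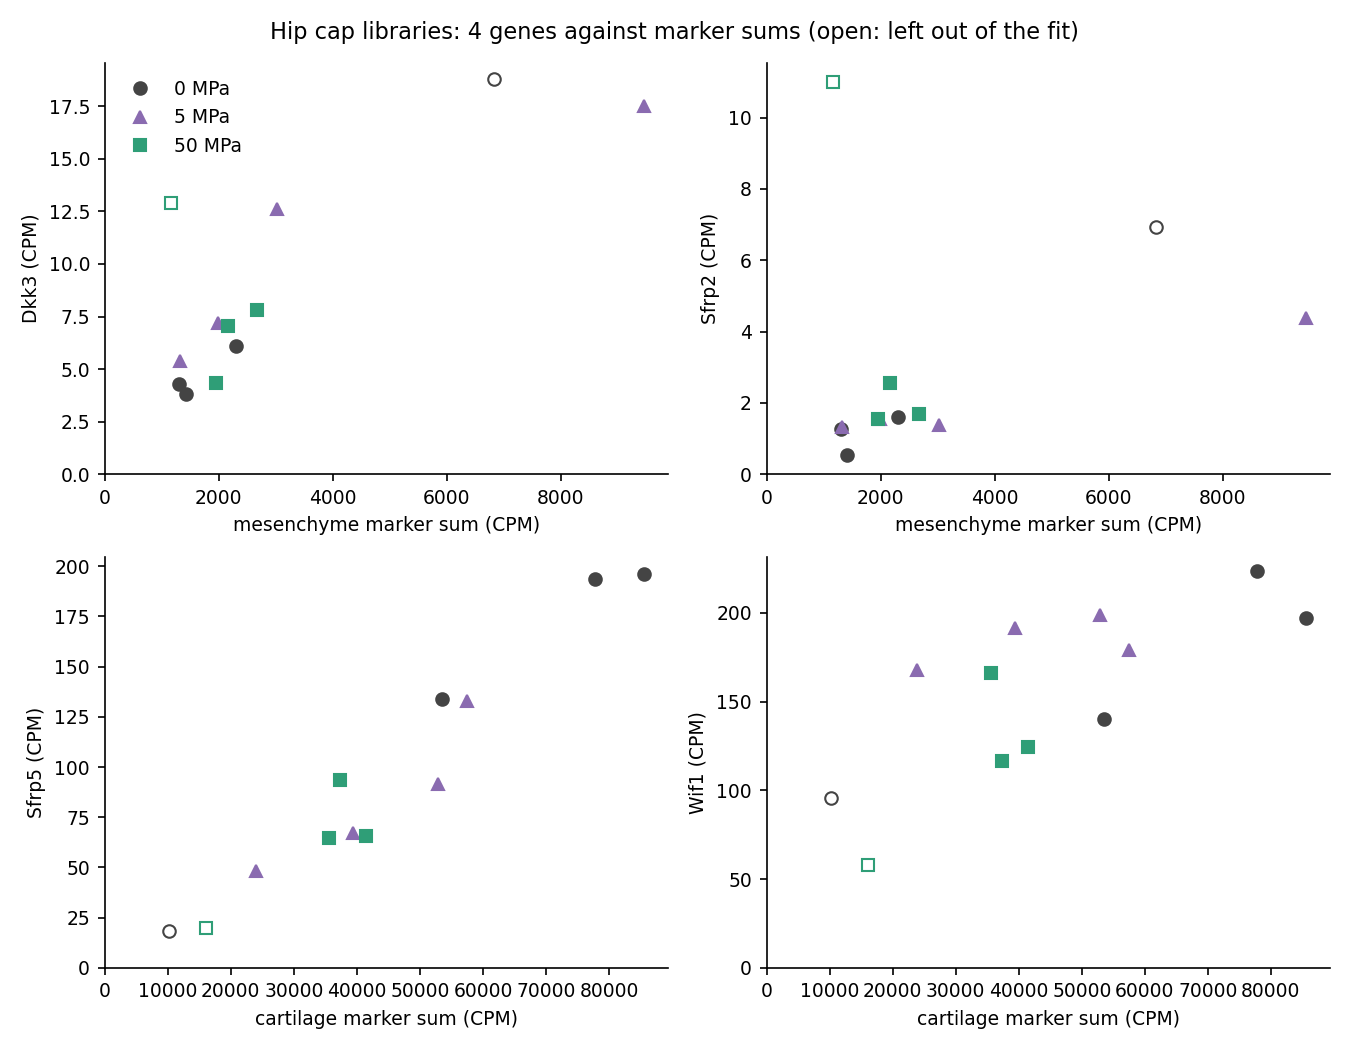
Hip cap libraries only: Dkk3 and Sfrp2 (CPM) against the summed level of 12 mesenchyme markers, and Sfrp5 and Wif1 (CPM) against the summed level of 14 cartilage markers, also in CPM. Symbols give the pressure and open symbols the 2 left-out libraries; the 5 MPa library with a mesenchyme sum of 9465 CPM has the highest Dkk3 of the fitted hip caps, at 17.5 CPM, and Sfrp5 is highest in the controls with the highest cartilage sums.

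In metatarsals none of the 10 genes was called at 5 or 50 MPa by edgeR or DESeq2, where edgeR called 0% of all genes and had 689 and 828 genes under an unadjusted p of 0.05. None was under an unadjusted p of 0.05 by edgeR at either pressure, and by DESeq2 0 were at 5 MPa and 1 was at 50 MPa. Leaving Rspo4 aside, with its 0 to 3 counts, folds at 5 MPa lay between -0.14 for Sfrp1 and 0.15 for Rspo2 (log2), with SEs between 0.19 and 0.37. At 50 MPa they lay between -0.47 ± 0.36 for Sfrp5 and 0.53 ± 0.35 for Rspo2. Rspo2 was at 12.2, 9.84, 8.18 and 8.96 CPM in controls and at 13.4, 12.8, 15.1 and 10.7 CPM at 50 MPa, with overlap between the groups. Frzb at 6.78 CPM in replicate 4 at 50 MPa was the highest metatarsal value, and that library was the only unstranded metatarsal library.

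**Figure D4:**
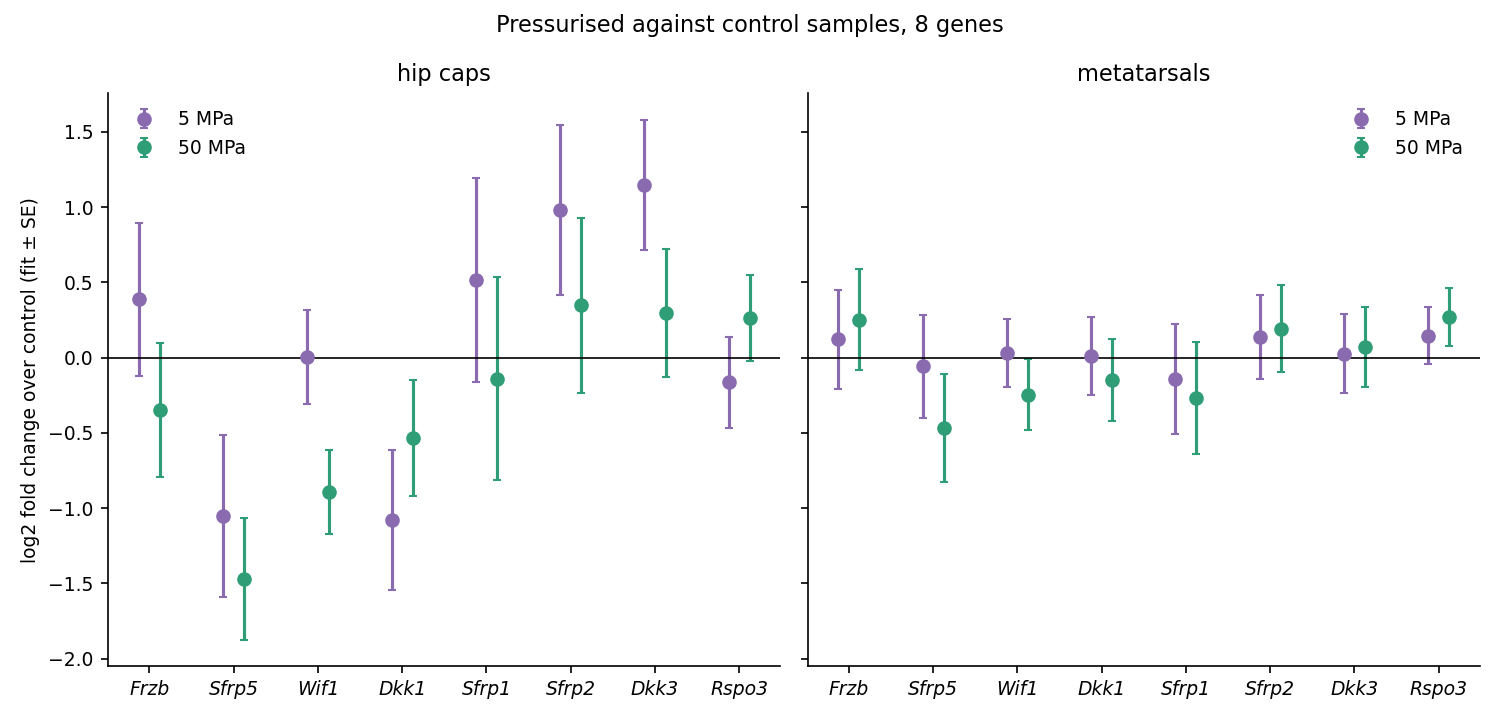
Log2 fold change over control at 5 and 50 MPa in hip caps (left) and metatarsals (right), fitted value with bars of 1 SE, for the 8 genes with usable counts in both tissues. Sfrp5 at 50 MPa in hip caps, at -1.47, is the value called by edgeR, and metatarsal values lie between -0.47 and 0.27.

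The difference between the tissues in their response to pressure was tested as an interaction. None of the 10 genes was called by edgeR or DESeq2 at 5 MPa, against 0.0188% of all genes by edgeR, or at 50 MPa, against 0.132%. Under an unadjusted p of 0.05 there were 2 genes at 5 MPa by edgeR and 1 by DESeq2, and 0 at 50 MPa by either. For Sfrp5 the interaction at 50 MPa was -0.999 ± 0.51 (log2, SE; adjusted p = 0.311 by edgeR) and for Wif1 -0.65 ± 0.34 (adjusted p = 0.327 by edgeR). The fall of Sfrp5 in hip caps was thus not shown to differ from its metatarsal value.

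The remaining genes of the pathway were taken from lists by role, 77 genes of which 67 were tested. These lists, too, were drawn up with earlier results of these data known. Their counts and adjusted p-values between the tissues, here and below, are therefore a description. In controls 16 of them were called as higher in hip caps and 19 as lower, where 14.1% and 15.9% of all genes were. Among 12 tested regulators other than the 10, 2 were higher and 4 lower. Sost, a secreted antagonist of LRP5 and LRP6 made by osteocytes, was at 30.1 ± 2.92 CPM in control hip caps (SD, n = 3) and at between 0 and 0.343 CPM in control metatarsals, with at most 6 counts. Notum, an enzyme that inactivates Wnt proteins, was at 23.9 ± 6.70 CPM in hip caps and 0.665 ± 0.567 CPM in metatarsals, a log2 difference of 5.54 ± 0.57 (adjusted p = 3.08e-07 by edgeR). Dkk2, a Dickkopf gene, was lower in hip caps by -3.06 ± 0.71 (adjusted p = 0.00407 by edgeR), although 1 control hip cap library held 18.2 CPM and the lowest 0.857 CPM. Sostdc1, a relative of Sost, was called lower, with at most 4 counts in a control hip cap library. The median log2 fold change of the list was -0.61, against -0.08 over all genes.

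Of 19 Wnt ligand genes 11 were tested, with 3 higher and 3 lower in control hip caps and a median of -0.15 (log2). Wnt5b, a noncanonical ligand of growth plate chondrocytes, was at 87.0 ± 23.9 CPM in hip caps and 5.39 ± 1.46 CPM in metatarsals, with 3.95 ± 0.56 (log2, SE). Wnt10b was also higher, by 1.502. Wnt11 was lower, by -2.39 ± 0.28, and Wnt9a, which is expressed at developing joints, by -2.20 ± 0.39. Of 16 receptor genes 3 were higher and 6 lower (median -0.24): Fzd5 at 1.10 and Fzd9 at 0.94, against Fzd10, which was called lower and had 0 counts in all control hip caps, and Fzd3 at -2.15. Of the 16 intracellular genes 4 were higher, led by Ctnnbip1 at 1.52 and Dvl1 at 0.96, and 3 lower, Tcf7l1 at -1.17 and Bcl9 at -0.77 the lowest (median -0.17).

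Among the 5 genes for R-spondin receptors and the ligases they act on, 1 was higher and 1 lower in control hip caps. Lgr6, a receptor, was higher, at 101 ± 6.50 against 6.40 ± 0.667 CPM (log2 difference 4.21 ± 0.25, adjusted p = 2.27e-10 by edgeR), and Lgr5, another receptor and a stem cell marker in several tissues, was lower, at 0.950 ± 0.281 against 10.7 ± 1.88 CPM (-3.45 ± 0.35, adjusted p = 2.95e-07 by edgeR). Lgr4, Znrf3 and Rnf43 were not called, with Lgr4 at 70.9 ± 15.3 and 58.8 ± 4.46 CPM. The median of the list was 0.21 (log2). Lgr6 and Lgr5 kept these directions at 5 MPa (3.86 and -2.86) and at 50 MPa (4.33 and -3.09).

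Genes commonly induced by canonical Wnt signalling moved in both directions between the tissues. Of 11 tested, 4 were higher in control hip caps and 2 lower, with a median of 0.21 (log2). Beside Notum, Lef1, a nuclear partner of beta-catenin, was higher, at 69.3 ± 10.9 against 11.01 ± 2.54 CPM (3.11 ± 0.30), whereas Axin2, a feedback inhibitor, was lower, at 7.91 ± 1.72 against 18.1 ± 2.63 CPM (-1.07 ± 0.21), and Nkd1, another, was lower by -1.53 ± 0.21. At 5 MPa 20 of the 67 genes were called as higher in hip caps and 24 as lower, and at 50 MPa the numbers were 14 and 21, where the shares of all genes were 18.8% and 19.1% at 5 MPa and 10.1% and 9.58% at 50 MPa. Sost (7.14 at 5 MPa and 7.57 at 50 MPa, log2), Notum (4.40 and 4.62), Lef1 (2.95 and 3.26), Wnt5b (2.19 and 2.53), Fzd5 (1.67 and 1.15) and Ctnnbip1 (0.92 and 1.46) were higher at both pressures. Dkk2 (-4.30 and -3.82), Wnt11 (-2.74 and -2.89), Nkd1 (-1.85 and -2.32), Axin2 (-1.60 and -1.26) and Bcl9 (-0.79 and -1.24) were lower at both. Sostdc1 was called lower at both pressures and Fzd10 at 5 MPa, each with at most 3 counts in a pressurised hip cap library of that comparison. Named at 1 pressure by the same rule were Wnt2b (1.84), Tcf7l2 (0.89), Fzd9 (0.69), Lgr4 (0.45), Wnt2 (-3.22), Fzd3 (-1.56) and Pygo1 (-0.82) at 5 MPa and Wnt7b (2.85), Gsk3b (0.94), Ryk (0.75), Wnt9a (-2.11), Fzd2 (-1.89), Ptk7 (-1.56) and Tcf7l1 (-1.04) at 50 MPa.

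**Figure D5:**
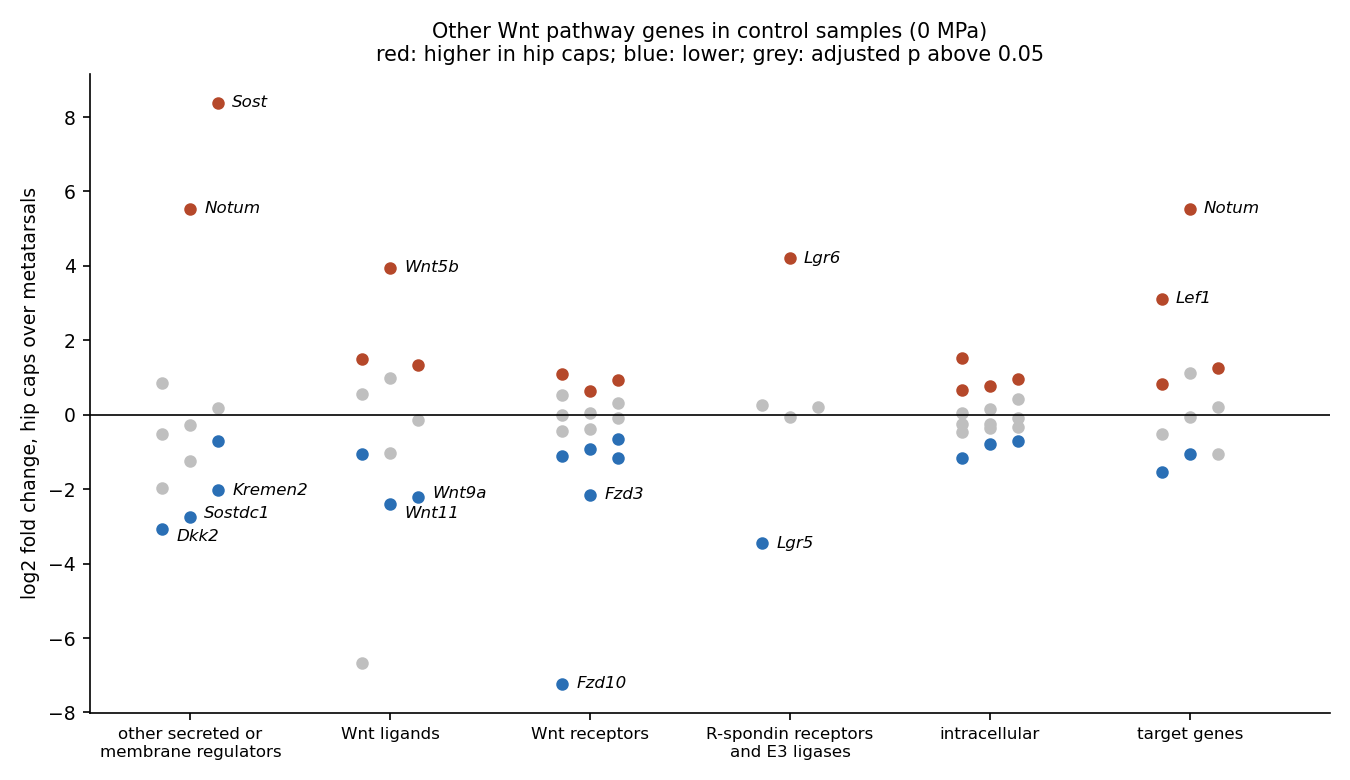
Log2 fold change of control hip caps over control metatarsals for the tested genes of 6 pathway lists; red and blue points passed an adjusted p of 0.05 as higher or lower in hip caps, grey points did not, and called genes beyond 2 in either direction are named. Points at both ends occur among regulators, ligands, and R-spondin receptors, and Notum stands in 2 lists.

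Under pressure, 2 of the 67 pathway genes rose and 9 fell in hip caps at 50 MPa, where 706 of all 21283 genes rose and 396 fell. The receptors Ptk7 (-1.24 ± 0.29, log2) and Fzd9 (-1.10 ± 0.30) fell the most of their list, in which 4 fell, and Fzd3 rose by 0.85 ± 0.24. Of the intracellular genes Csnk1a1 rose by 0.73 ± 0.20 and 3 fell, with Dvl1 at -0.81 ± 0.23 and Bcl9 at -0.62 ± 0.17 the lowest. Of the target genes Myc fell by -1.07 ± 0.28 and Nkd1 by -0.85 ± 0.22, while Axin2 was at -0.39 ± 0.24 and was not called. None of the 5 R-spondin receptor genes, the 11 ligands or the 12 other regulators was called by edgeR. The count of 11 called genes fell to 0 without control hip cap replicate 3, to 1 without hip cap replicate 3 at 50 MPa, metatarsal control replicate 1 or metatarsal replicate 4 at 50 MPa, to 5 without metatarsal control replicate 3, to 6 without metatarsal control replicate 4 and to 7 without metatarsal replicate 3 at 5 MPa, and it was 14 by DESeq2. The count was also 0 with all 24 libraries, with library sizes alone, with each tissue fitted alone and within 1 sequencing run, 3 with no batch terms, 4 with library type alone and 6 without a filter.

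No pathway gene was called in hip caps at 5 MPa, in metatarsals at either pressure, or for either interaction by edgeR in the reported fit. Some edgeR alternatives called genes in hip caps or for an interaction, and none did in metatarsals. With no batch terms 2 rose and 4 fell in hip caps at 5 MPa. Without control hip cap replicate 2, 2 fell there, and 2 were higher and 7 lower for the interaction at 50 MPa. That interaction had 4 lower without hip cap replicate 4 at 50 MPa. Under an unadjusted p of 0.05 edgeR had 9, 4, 3, 5 and 17 of the 67 genes in hip caps at 5 MPa, metatarsals at 5 MPa, metatarsals at 50 MPa, the interaction at 5 MPa and the interaction at 50 MPa. DESeq2 called 1 gene in hip caps at 5 MPa and 7 for the interaction at 50 MPa, and 0 in the other comparisons.

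The genes whose log2 CPM followed each of the 10 most closely over the 22 libraries were found among 13946 genes with a mean of at least 1 CPM. These correlations are a description over libraries of both tissues, between which all 10 genes differ in level. Wif1 was closest to Chad, which encodes the cartilage matrix protein chondroadherin (Pearson r = 0.996), then Cemip and Tnfrsf11b. Frzb was closest to Rbp4, Cpe and Grb14 (r = 0.994 for each), Sfrp5 to Fgfr3 (r = 0.992), a growth factor receptor of growth plate chondrocytes, then Fbln7 and Ccdc80, and Rspo4 to Fxyd2, B4galnt3 and Vit (r = 0.977 to 0.980). On the metatarsal side, Sfrp2 was closest to the imprinted gene Mest (r = 0.993), then Fat4 and Slc8a1, Dkk3 to Nhsl1, Slc8a1 and Tspan11, Sfrp1 to Afap1, Dapk1 and Tspan11, and Rspo2 to Svil, Pcdh18 and Ccdc102a. Dkk1, closest to Prkag2, Bmp3 and Tnfrsf19, had a highest r of 0.911, and Rspo3, closest to Gpr85, Cd83 and Aox3, one of 0.930.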

How the data were processed

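RNA depleted of ribosomal RNA from 24 samples was sequenced, with low RNA integrity. The authors trimmed reads with Trim Galore 0.6.5 and estimated abundances with kallisto, whose version is not given in the sources used here, and the deposited table holds estimated counts per gene, neither normalised nor filtered. Short or degraded RNA can shift such counts between transcripts. The submitters' processing notes name GRCm39, while gene names, lengths and promoters here come from GENCODE M21 and RefSeq on GRCm38; 48845 of 52178 identifiers were named.

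Counts were rounded, and edgeR 4.0.16 (R 4.3.3, limma 3.58.1) quasi-likelihood tests were fitted to 22 libraries with TMM factors and terms for group, sequencing run and library type (stranded or unstranded). Genes were kept by filterByExpr with the group, p-values were adjusted over 21283 genes by the Benjamini-Hochberg method, and a call is an adjusted p at most 0.05. SE is the log2 fold change divided by the root of F. Log2 CPM used a prior count of 2. DESeq2 1.42.0 was an alternative, and the fitting script was tested on simulated data. The run of each library was read from a picture and conflicts with the stated library numbers per run, so it is uncertain. Nothing states that samples of a group came from separate litters or days, so p-values measure the spread between these samples.

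The genes and lists were chosen with earlier results of these data known. Named genes are all 10, the 2 highest and 2 lowest folds among the called genes of each pathway list in each comparison, genes of those lists for their level, and for each of the 10 the 3 named genes of at least 1 CPM with the highest correlation. Replicate numbers were not taken to pair the samples: over 23 pairs with the same number, correlations of deviations from the group means lay between -0.114 and 0.154. Pairs with different numbers were not compared, and some pairs were of hip caps with metatarsals, so these values cannot exclude a pairing. No 2 libraries were duplicates (highest r = 0.982). Depth is given in the report, and the alternatives below.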

Additional observations from a re-analysis of the deposited data

Results flagged for a closer look

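A library stood apart from the other 3 of its group in 9 of 60 combinations of gene and group, all 4 labelled libraries included. The rule's chance rate of about 1 in 20 assumes normal and independent values. Levels near 0 and genes that vary together do not meet this, so the 9 are not compared with that rate. Of these 9 values, 4 belong to the libraries that the study left out: in hip cap control replicate 4 Sfrp2 was at 6.93 CPM (others 0.544 to 1.62) and Dkk3 at 18.8 CPM (others 3.80 to 6.10), and in hip cap replicate 2 at 50 MPa Sfrp2 was at 11.01 CPM (others 1.55 to 2.57) and Rspo2 at 5.35 CPM (others 0 to 0.633).

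In hip cap replicate 3 at 5 MPa, Sfrp1 was at 5.31 CPM (others 1.42 to 2.04) and Sfrp2 at 4.38 CPM (others 1.32 to 1.55). At 50 MPa, Frzb was at 6.78 CPM in metatarsal replicate 4 (others 2.63 to 3.30) and Sfrp1 at 17.7 CPM in metatarsal replicate 2 (others 20.7 to 21.1). Rspo4 was at 0.107 CPM in metatarsal control replicate 2, from 2 counts, and at 0 in the other 3.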

How the results depend on the processing

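Over the alternatives run, each of the 10 genes kept its direction between the tissues (912 values). With at least 10 counts in every library only 4 of the genes could be tested, and 4 were called at each of 0, 5 and 50 MPa. Leaving out 1 library gave from 9 to 10 called genes at 0 MPa, 10 at 5 MPa and from 8 to 10 at 50 MPa. With library sizes alone the typical gene stood at -0.97, -0.70 and -0.90 (median log2) at 0, 5 and 50 MPa, and 7.97%, 12.4% and 7.55% of called genes were higher in hip caps, against 47.0%, 49.7% and 51.5% in the reported fit. Dkk1 then stood at 1.61, 0.65 and 1.11 and was not called at 5 or 50 MPa. Under pressure the typical gene then stood at 0.52 (5 MPa) and 0.25 (50 MPa) in hip caps, with metatarsal medians of 0.24 and 0.26, and 84.1% against 64.1% of genes called in hip caps at 50 MPa were higher.

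In hip caps at 5 MPa, 1 gene was called with library type alone (Dkk3) and 2 with no batch terms. In hip caps at 50 MPa, 2 were called by DESeq2, and 0 with library sizes alone, without a filter, with all 24 libraries, with each tissue fitted alone or within 1 sequencing run, while leaving out 1 library gave from 0 to 2. The replicate block, whose numbers were not taken to pair the samples, gave 2 in hip caps at 50 MPa (Sfrp5 and Wif1) and 10 between the tissues at 50 MPa, and changed no other count of called members. No alternative called a member in metatarsals or for an interaction. In hip caps under pressure 58 of 635 values changed sign, all uncalled. Over all genes, DESeq2 called 418 higher and 171 lower in hip caps at 5 MPa, where edgeR called 2 and 2, 1558 and 924 at 50 MPa, where edgeR called 706 and 396, and 86 and 48 (5 MPa) and 882 and 525 (50 MPa) for the interactions, where edgeR called 2 and 2, and 17 and 11. In metatarsals it called 2 and 14 at 5 MPa and 1 and 8 at 50 MPa, where edgeR called 0. Apart from the number of genes or libraries that an alternative leaves, the cause was not tested. Depth limits Rspo4 in metatarsals and Rspo2 in hip caps.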
